A study of Mus musculus with 9 samples.

Results

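The SLAM family is a set of cell-surface receptors of the immunoglobulin superfamily that blood cells use to sense one another. All 9 mouse genes that carry the family's names (Slamf1, Slamf6, Slamf7, Slamf8, Slamf9, Cd48, Cd84, Ly9 and Cd244) were found by gene symbol among the 24346 genes measured. They were followed in 9 RNA-seq libraries of B cells sorted from the spleens of wild-type C57BL6 mice, with 3 libraries in each of 3 groups. The groups were follicular (FO) B cells of young mice at 8 weeks, FO B cells of aged mice at 50 weeks, and, also at 50 weeks, the ABCs (age-associated B cells). Among other markers, FO B cells were gated as B220hi and CD43-, with CD23 present and CD21 low, whereas ABCs shared B220hi, CD43- and low CD21 but lacked CD23 and carried both CD11b and CD11c. No young ABCs were among the groups, and the labels do not say whether FO B cells and ABCs with the same number came from 1 mouse, so the p-values measure the spread between these libraries.

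Most SLAM receptors bind the same receptor on a neighbouring cell, and the main exception is the pair Cd244 and Cd48. The tails of most members carry a tyrosine motif that is read by the small SH2 adaptors SAP and EAT-2 or by phosphatases such as SHP-1 and SHIP-1, while Cd48 is held in the membrane by a lipid anchor and has no tail. In mouse B cells the family is known for its part in contacts between B and T cells, and the gene cluster lies within a chromosome region linked to lupus-like autoimmunity.

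On GRCm38 with the GENCODE M21 annotation, all 9 genes are protein-coding genes of chromosome 1. Cd244 (named Cd244a there, chr1:171559193-171609746), Ly9 (chr1:171588624-171607410), Slamf7 (chr1:171632403-171653035), Cd48 (chr1:171682009-171705258), Slamf1 (chr1:171767127-171801184), Cd84 (chr1:171839697-171890718) and Slamf6 (chr1:171917515-171953170) form a cluster of 393978 bases. Slamf9 (chr1:172475358-172478575) begins after a further 522187 bases, and Slamf8 (chr1:172581758-172590568) follows it by 103182 bases. Ly9, Slamf7 and Slamf8 are on the minus strand. Ly9 lies within the span of Cd244 with 0 exonic bases in common, and 423 exonic bases of Slamf7 overlap the antisense gene Gm37787. The cDNA kit does not mark strand, so reads from those bases of Slamf7 cannot be assigned to either gene.

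The sequences upstream of 3 members are shown because the results turn on them: Cd48 was the called member that was higher in ABCs, Slamf1 the lower one with the smallest adjusted p, and Slamf9 the lower one with the largest fold. Each run gives the 250 bases before the RefSeq start (GRCm38.p6), 5′ to 3′ on the plus strand. RefSeq promoters were matched for 8 of the 9 members, and Ly9 had none. Capitals mark 3 motifs searched on both strands, which are the T-box half-site GGTGTGA, the ETS core AGGAAG and the E-box CACGTG.
Cd48, chr1:171681742-171681991: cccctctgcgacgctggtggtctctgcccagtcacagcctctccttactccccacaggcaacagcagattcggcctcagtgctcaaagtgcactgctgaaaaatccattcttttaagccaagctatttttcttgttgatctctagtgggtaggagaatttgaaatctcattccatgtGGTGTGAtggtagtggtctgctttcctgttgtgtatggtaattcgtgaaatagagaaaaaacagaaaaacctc
Slamf1, chr1:171766882-171767131: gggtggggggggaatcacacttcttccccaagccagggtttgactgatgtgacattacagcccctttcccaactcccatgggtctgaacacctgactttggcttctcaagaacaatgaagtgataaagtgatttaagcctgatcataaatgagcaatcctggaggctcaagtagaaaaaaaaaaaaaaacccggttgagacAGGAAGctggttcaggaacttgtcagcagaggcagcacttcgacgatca
Slamf9, chr1:172475110-172475359: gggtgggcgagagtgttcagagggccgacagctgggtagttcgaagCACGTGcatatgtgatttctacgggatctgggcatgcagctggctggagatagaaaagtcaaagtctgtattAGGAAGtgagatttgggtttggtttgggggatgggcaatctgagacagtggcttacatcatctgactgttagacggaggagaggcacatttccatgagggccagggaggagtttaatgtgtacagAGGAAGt
The T-box half-site, which T-bet and its relatives can bind, began 73 bases before the RefSeq start of Cd48. The GENCODE M21 start of Cd48 (171682009) lies further downstream, so this distance depends on the start chosen. The half-site occurred in 1 of the 8 members, against 3.33% of 32851 mouse promoters of that length. The ETS core was found in 3 of the 8 members (Slamf1, Slamf7 and Slamf9), against 29.5% of all promoters. The Slamf7 window (chr1:171649000-171649249) lies inside the GENCODE M21 span of that gene, so its match also depends on the start chosen. The E-box was found in 3 of the 8 (Cd244, Slamf8 and Slamf9), against 6.02%. These matches describe letters in a window and not binding.

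The labels fitted the sort genes Itgam, Itgax and Fcer2a. In ABCs against aged FO B cells, Itgam (CD11b) was at 55.1 ± 9.82 against 0.665 ± 0.273 FPKM (reads scaled to transcript length and sequencing depth, SD, n = 3), Itgax (CD11c) at 50.7 ± 7.90 against 0.115 ± 0.0873, and Fcer2a (CD23) at 3.86 ± 3.25 against 714 ± 15.7. Cr2 (CD21), gated low in both groups and so not a check of the labels, was at 4.69 ± 3.83 against 151 ± 20.7. Tbx21, which encodes T-bet and was not a sort marker, was at 178 ± 11.9 against 6.98 ± 2.03. Depth was estimated from the FPKM steps of low genes at 7380000 to 9130000 mapped reads a library. Library 3 of the ABCs stood apart from libraries 1 and 2: its Pearson correlations with them over 10375 genes were 0.964 and 0.958, against 0.980 between those libraries and 0.973 to 0.976 within the FO groups. In that library the summed level of 7 B-lineage genes (led by Cd79a) was 6578 FPKM, below the 8079 and 8432 of the other ABC libraries and the 7615 to 8002 of the FO libraries. Most of this sum came from Cd79a, Cd79b and Ms4a1 (means of 3092, 2431 and 997 FPKM in ABCs). Against aged FO B cells, Cd22 and Blk were higher in ABCs, Pax5 and Ebf1 lower and the other 3 not called, where 35.9% of all genes were called. The Fcer2a level of library 3 was 0.464 FPKM, against 4.15 and 6.95. The tests of ABCs against aged FO B cells are therefore also given without it.

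Genes known from other cell types also differed in ABCs. For 8 NK cell genes the summed level was 29.5–38.2 FPKM in ABCs and 0.789–1.71 in aged FO B cells, with 1 of 2 tested genes (Prf1) higher and Gzmb at 0 in ABCs. For 12 macrophage and monocyte genes it was 276.5–324 and 22.3–30.5, with 3 of 6 tested genes higher (Adgre1 led) and the other 6 of the 12 below 1 FPKM in ABCs. For 9 T cell genes it was 5.20–39.4 and 1.44–2.90, with Cd3g higher and the other 8 below 1 FPKM. For 7 dendritic cell genes it was 8.85–13.5 and 2.46–5.08 (2 of 3 tested higher), for 6 plasma cell genes 191–225 and 129–148 (3 of 5 higher), and for 5 neutrophil genes 0–1.20 and 0.987–23.9 (1 of 2 lower, S100a8 and Ltf at 0 in ABCs). Genes such as Prf1, Cd3g and Batf3 (means of 0.816, 0 and 0 FPKM in aged FO B cells) reached the mean of 1 FPKM required for a test only through the ABCs. The counts among tested genes are therefore not independent of the differences. The part of such cells in the SLAM family values was not tested. In bulk samples, fewer cells with a transcript and less of it per cell cannot be told apart.

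FO B cells carried a graded set of SLAM transcripts. FPKM is a level per transcript length, so genes may be ranked by it. In young FO B cells the order ran from Cd48 (404 ± 52.0 FPKM, SD, n = 3) through Slamf6 (81.7 ± 0.384), Ly9 (72.2 ± 1.62), Cd84 (59.6 ± 2.02), Slamf1 (41.9 ± 3.03), Slamf7 (16.2 ± 1.32), Slamf9 (6.44 ± 2.20) and Cd244 (0.989 ± 0.212) to Slamf8, which was listed at 0 in all 3 libraries. Aged FO B cells had the same order, and in both FO groups the ranges of neighbouring genes did not overlap. Cd48 alone made up 59.0% ± 3.70 of the family's summed FPKM in young and 58.7% ± 1.21 in aged FO B cells.

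In ABCs Cd48 made up 71.8% ± 4.90 of the family's FPKM, with no overlap with either FO group. The share was 70.1%, 68.0% and 77.4% in ABC libraries 1, 2 and 3, so the third was the highest. The summed level of all 9 genes overlapped between groups, at 711 ± 70.1 FPKM in ABCs, 670 ± 11.8 in aged and 683 ± 46.1 in young FO B cells. Without Cd48 the other 8 genes summed to 142.5–239.7 FPKM in ABCs, below the 273–281 of aged FO B cells. The lowest of these ABC values was that of library 3, and libraries 1 and 2 were at 225 and 240 FPKM. The order below Cd48 was less separate in ABCs, where the ranges of Slamf6 and Ly9, Ly9 and Cd84, and Cd84 and Slamf1 overlapped. Among the 3 lowest genes there, the ranges of Slamf9 and Slamf8, and of Slamf8 and Cd244, also overlapped.

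**Figure D1:**
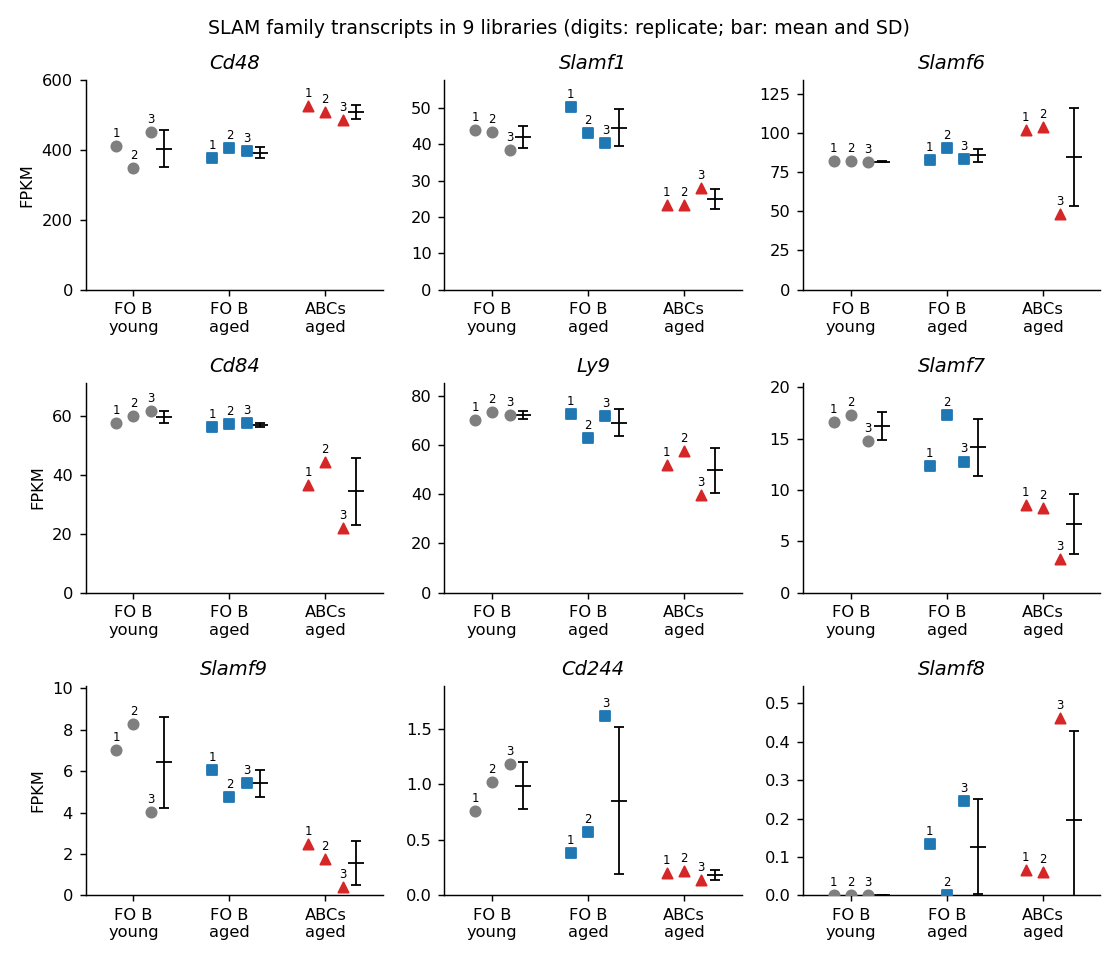
Level (FPKM, linear axes from 0) of each SLAM family gene in the 9 libraries, by group, with replicate digits and the mean and SD of each group of 3. Cd48 sits above both FO groups in ABCs, Slamf1, Cd84, Ly9, Slamf7 and Slamf9 sit below them, and the third ABC library is the lowest of its group for 7 of the 9 genes.

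The first comparison asked how ABCs differ from FO B cells of the same age. Of the 9 members, 7 reached the mean of 1 FPKM required for the test and Slamf8 and Cd244 did not. Among the 7, Cd48 was higher in ABCs, and Slamf1, Slamf7, Slamf9, Cd84 and Ly9 were lower, at an FDR below 0.05 (limma on log2(FPKM + 1) over 10412 genes, 3 against 3). Slamf6 was not called. Over all genes 35.9% were called, 19.4% higher and 16.5% lower, with 2020 higher and 1719 lower; upper quartile scaling gave 2459 higher and 603 lower. The median log2 fold change was -0.77 for the 7 members and -0.01 for all genes tested. With upper quartile scaling, which moved the median of all genes to 0.155, 1 member was higher and 2 were lower.

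Cd48, the ligand of Cd244 and in mice also of Cd2, was at 527, 510 and 487 FPKM in the 3 ABC libraries. It was at 377, 405 and 398 in the aged FO libraries. All ABC libraries were above all FO libraries, the highest young one (452) included. Cd48 was 1.29-fold higher in ABCs (log2 fold change 0.37, SE 0.06, 95% interval 0.22 to 0.52, limma FDR 0.00444). Without the third ABC library the change was 0.40 (FDR 0.00255). The call held in all 16 alternative settings, with FDR from 0.00255 to 0.0250.

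Slamf1 (CD150), a receptor that binds itself and is used as a marker of blood stem cells, was at 23.3, 23.2 and 28.0 FPKM in ABCs. It was at 50.2, 43.1 and 40.3 FPKM in aged FO B cells. The groups were far apart, and here the third ABC library was the highest of its group and the nearest to FO B cells. Slamf1 was 1.79-fold lower in ABCs (log2 fold change -0.82, SE 0.11, limma FDR 0.00165). Without the third ABC library the change was -0.90 (FDR 0.000605), and the FDR ranged from 0.000233 to 0.00805 over the 16 alternatives.

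Slamf7 (CRACC), a self-binding receptor known from NK cells and plasma cells, was at 8.57, 8.19 and 3.27 FPKM in ABCs. In aged FO B cells it was at 12.4, 17.3 and 12.8 FPKM. Every ABC library was below every FO library. The change was -1.06 on the log2 scale (SE 0.31, limma FDR 0.0356), and -0.68 (FDR 0.0130) without the third ABC library. The call was lost when any of the aged FO libraries was left out (FDR 0.0752, 0.110 and 0.0792 without libraries 1, 2 and 3), and also with no filter on low values (0.0765) or upper quartile scaling (0.0987).

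Cd84 and Ly9 (CD229), both self-binding receptors of B and T cells, moved in the same direction. Cd84 was at 36.5, 44.4 and 22.0 FPKM in ABCs and at 56.3, 57.1 and 57.5 in aged FO B cells. The FO libraries were nearly equal, so the spread lay in the ABCs. Cd84 fell by 0.77 on the log2 scale (SE 0.22, limma FDR 0.0337), and by 0.49 (FDR 0.00622) without the third ABC library. Its call was lost without aged FO library 1, 2 or 3 (FDR 0.0903, 0.0858 and 0.0926) or ABC library 1 (0.0579), and with no filter (0.0711) or upper quartile scaling (0.15).

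Ly9 was at 51.9, 57.8 and 39.8 FPKM in ABCs and at 72.8, 62.7 and 71.7 in aged FO B cells. The groups did not overlap, with 57.8 the highest ABC value and 62.7 the lowest FO value. Ly9 fell by 0.48 on the log2 scale (SE 0.14, limma FDR 0.0335), and by 0.33 (FDR 0.0294) without the third ABC library. Its call was lost in 7 of the 16 alternatives, with FDR up to 0.303 (upper quartile scaling), among them those without aged FO library 1 (0.108) or 3 (0.102) or ABC library 1 (0.0619).

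Slamf9, a member with a short tail that lacks the tyrosine motif, was at 2.48, 1.77 and 0.389 FPKM in ABCs. It was at 6.07, 4.77 and 5.43 in aged FO B cells. This was the largest fold among the members tested, with a mean FPKM 3.50-fold lower in ABCs, and also the least sampled. On the scale of log2(FPKM + 1), which understates changes of low genes, Slamf9 changed by -1.43 (SE 0.32, limma FDR 0.0132). Its values correspond to about 47 reads in the 3 ABC libraries together and about 174 in the aged FO libraries, taking the longest annotated transcript. Without the third ABC library the change was -1.04 (FDR 0.00281), and without the first aged FO library the FDR was 0.0534.

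Slamf6 (Ly108), another self-binding receptor, was the tested member that was not called. It was at 102, 104 and 48.5 FPKM in ABCs and at 82.9, 90.6 and 83.5 in aged FO B cells. Thus 2 ABC libraries were above all FO libraries and the third was below all of them. The log2 fold change was -0.09 (95% interval -0.73 to 0.55, limma FDR 0.812). Without the third ABC library it was 0.26 (FDR 0.0222), so that Slamf6 joined Cd48 as higher in ABCs and the count became 2 higher and 5 lower of 7. The values of library 3 in the B-lineage and Fcer2a lines above stand beside this, and their part was not tested.

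The count of lower members depended on single libraries. It was 5 with all libraries, 1, 3 and 2 without aged FO library 1, 2 and 3, and 3, 5 and 5 without ABC library 1, 2 and 3. The direction of each of the 6 called members was unchanged in all these fits. The levels of 7 of the 9 members (all but Slamf6 and Slamf8) did not overlap between ABCs and aged FO B cells, including 6 of the 7 tested; 52.6% of all genes tested did not overlap. With 3 libraries against 3, the exact two-sided permutation test cannot go below p = 0.1, which these 7 members reached.

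Slamf8 and Cd244 were near the floor. Cd244 (2B4), the receptor for Cd48 on NK cells, was at 0.206, 0.217 and 0.136 FPKM in ABCs and 0.381, 0.569 and 1.62 in aged FO B cells. All ABC values were below all FO values, from about 17 and 81 reads. When genes were not filtered on level, its log2 fold change was -0.59 (SE 0.23, limma FDR 0.147). Slamf8, a short-tailed member known from myeloid cells, was at 0.0666, 0.0603 and 0.463 FPKM in ABCs, from at least 9 reads in all, and at 0.134, 0 and 0.246 in aged FO B cells, from at least 6. These ranges overlapped, and a difference was not detectable at this depth.

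**Figure D2:**
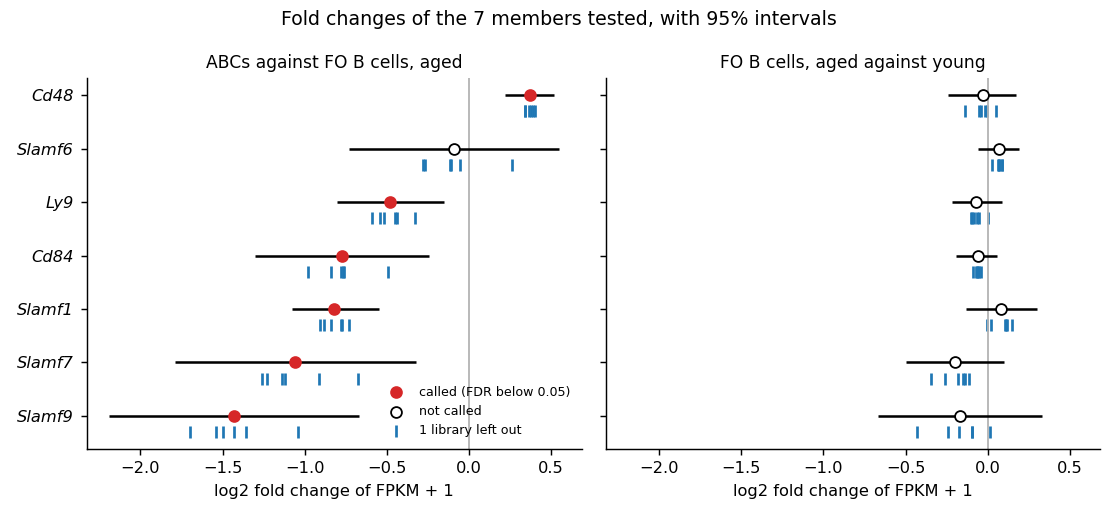
Difference in log2(FPKM + 1) of the 7 tested members with its 95% interval (points and black bars), and the value with each of the 6 libraries left out in turn (blue ticks), for ABCs against aged FO B cells (left) and aged against young FO B cells (right). On the left, 6 members are called and Slamf6 alone has a tick on the other side of 0; on the right every interval spans 0.

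The second comparison asked what age does to FO B cells. None of the 7 members tested was called between aged and young FO B cells by limma, and 0 of 7 had an unadjusted p below 0.05 (lowest 0.168). Over all 10122 genes 0.464% were called, 0.346% higher and 0.119% lower, as 35 higher and 12 lower (24 and 27 with upper quartile scaling), and 12.8% had an unadjusted p below 0.05. The intervals bound the differences closely for the most abundant members: from -0.24 to 0.17 for Cd48, from -0.06 to 0.19 for Slamf6, from -0.22 to 0.09 for Ly9, from -0.19 to 0.06 for Cd84 and from -0.13 to 0.30 for Slamf1, on the log2 scale. They were wider for Slamf7 (-0.50 to 0.10) and Slamf9 (-0.67 to 0.33). Slamf6 was the 1 member whose groups did not overlap, at 81.2 to 81.9 FPKM in young and 82.9 to 90.6 in aged mice (FDR 0.665), and 18.6% of all genes did not overlap. Cd244 was at 0.760, 1.03 and 1.18 FPKM in young FO B cells, within the range of the aged ones.

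The third comparison set ABCs against young FO B cells. It shares the ABC libraries with the first and mixes age with cell type, so its values are a description beside the first. Again 1 of the 7 members was higher and 5 were lower, where 40.7% of all 10438 genes were called, 21.6% higher and 19.1% lower. The unadjusted p was below 0.05 for 6 of the 7 members and for 49.8% of all genes, and 6 of the 7 did not overlap between the groups, against 55.3% of all genes. The log2 fold changes were 0.34 for Cd48 (limma FDR 0.0312), -0.73 for Slamf1 (0.00128), -0.83 for Cd84 (0.0230), -0.54 for Ly9 (0.0143), -1.25 for Slamf7 (0.0138), -1.60 for Slamf9 (0.0133) and -0.03 for Slamf6 (0.947). Without the third ABC library Slamf6 was at 0.33 (FDR 0.00296), and 2 members were higher and 5 lower. Without young library 2 the count was 0 higher and 1 lower, without young library 1 it was 0 and 3, and without ABC library 1 or 2 it was 0 and 5. Cd244 was lower when genes were not filtered on level (-0.74, FDR 0.00472).

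Ratios of 2 genes within a library do not depend on the scaling of the library. The Cd48 to Slamf1 ratio was 20.7 ± 2.86 (SD, n = 3) in ABCs, 8.92 ± 1.25 in aged and 9.73 ± 1.89 in young FO B cells. ABCs were above both FO groups in every library (exact permutation p = 0.1, the smallest possible). This separation follows from the levels of Cd48 and Slamf1, neither of which overlapped between ABCs and either FO group. The Slamf6 to Cd84 ratio was 2.45 ± 0.308 in ABCs against 1.50 ± 0.0724 in aged FO B cells, also with no overlap, the third library included. It also did not overlap between aged and young FO B cells (1.37 ± 0.0521 in young ones). The Slamf6 to Ly9 ratios of ABCs (1.66 ± 0.392) and aged FO B cells (1.25 ± 0.169) overlapped, and those of ABCs and young FO B cells (1.13 ± 0.0268) did not. In ABC libraries 1, 2 and 3 the Slamf6 to Ly9 ratio was 1.96, 1.80 and 1.22.

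The partners of the receptors were taken from lists of known binding and signalling genes. The SH2 adaptor SAP (Sh2d1a), the main adaptor of the family in T cells, was listed at 0 in all 9 libraries. EAT-2 (Sh2d1b1), an adaptor known from NK and myeloid cells, was at 29.9, 21.9 and 10.9 FPKM in ABCs. It was at 0.101, 0 and 0.0921 FPKM in aged FO B cells and 0 in all young ones. The ABC and FO ranges were wide apart (log2 fold change 4.26, SE 0.32, limma FDR 0.000150), and the call held in all 16 alternatives, at 4.64 without the third ABC library. Sh2d1b1 reached the mean of 1 FPKM required for the test only through the ABCs, so its call is not independent of the difference.

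In reads, the fewest that give the Sh2d1b1 values were 646 in ABCs and 2 in aged FO B cells, a ratio per depth of 344 (95% exact interval 94.8 to 2845, counting error only). The paralogous Sh2d1b2 was listed at 0 in all libraries but 1 young one (0.608 FPKM). How reads shared by the pair were counted is not given in the sources used here, so the split between them is uncertain. The rise stood beside that of NK cell genes (Prf1 29.2 FPKM in ABCs) and of macrophage and monocyte genes (Adgre1 198 FPKM in ABCs). The part of such cells was not tested. Of the 12 macrophage and monocyte genes, 6 were below 1 FPKM in all ABC libraries. Of the 8 NK cell genes, 5 were below 1 FPKM in all ABC libraries. The other 3 were Prf1, Klrd1 (2.07 ± 1.79 against 0.287 ± 0.200 FPKM, overlapping) and Nkg7 (1.36 ± 1.01 against 0.119 ± 0.103, not overlapping).

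Cd2, the other partner of Cd48 in mice, was at 907, 989 and 908 FPKM in ABCs. It was at 351, 399 and 386 in aged and 376, 355 and 337 in young FO B cells. Every ABC library was above every FO library by more than the spread within any group (log2 fold change 1.30, SE 0.08, limma FDR 4.99e-05, and 1.32 without the third ABC library). The Cd2 to Cd48 ratio was 1.84 ± 0.111 in ABCs and 0.962 ± 0.0269 in aged FO B cells, with no overlap. Of the 4 genes of CD2 and the proteins that bind its tail, 3 were higher in ABCs and 1 lower, where 35.9% of all genes were called: Cd2bp2 (0.29, FDR 0.0224) and Pstpip1 (0.28, FDR 0.0470) rose with Cd2, and the adaptor Cd2ap fell by 0.95 (FDR 0.000947). Cd2ap was at 5.77, 7.43 and 6.96 FPKM in ABCs and 13.0, 14.0 and 14.5 in aged FO B cells. The Pstpip1 call was lost in 10 of 16 alternatives, among them that without the third ABC library (FDR 0.0857), and the Cd2bp2 call in 4.

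**Figure D3:**
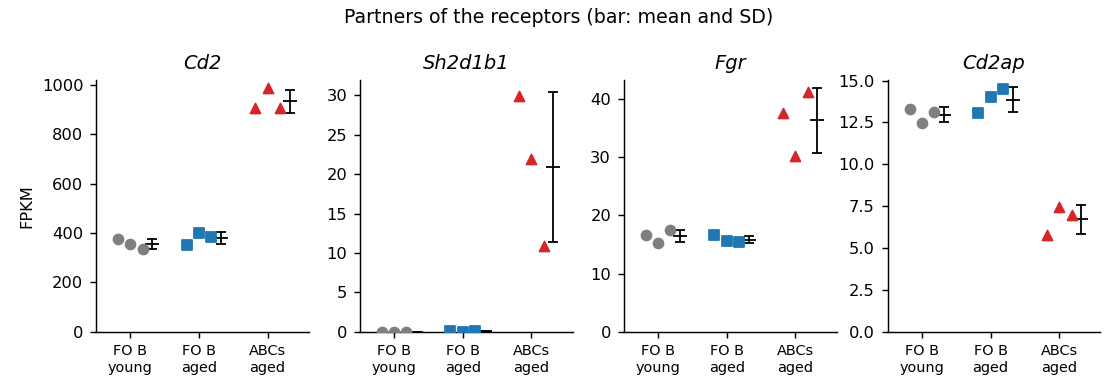
Level (FPKM, linear axes from 0) of Cd2, Sh2d1b1, Fgr and Cd2ap in the 9 libraries, with the mean and SD of each group of 3. ABCs lie above both FO groups for the first 3 genes and below them for Cd2ap, and the FO groups lie close together in each panel.

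Of 8 kinases and phosphatases that act at the receptor tails, 2 were higher in ABCs, 1 was lower and 5 were not called, with a median log2 fold change of 0.07. This is near the share called over all genes, 35.9%, with 19.4% higher and 16.5% lower. The Src family kinases Fgr (1.14, SE 0.12, limma FDR 0.000534) and Lyn (0.53, SE 0.06, FDR 0.000862) were the higher ones. Lck (-0.89, FDR 0.0541) and Fyn (-0.34, FDR 0.286), of the same kinase family, had the other sign and were not called. Against young FO B cells Lck was called lower (-1.04, FDR 0.0277). Csk, which holds Src family kinases in check, was lower by a small amount (-0.24, FDR 0.0231), and its call was lost in 6 of 16 alternatives. Of 10 downstream signalling genes, 9 were tested, and 4 were higher, 1 lower and 4 not called (median 0.38), beside 19.4% higher and 16.5% lower over all genes. The phospholipases Plcg1 (0.65, FDR 0.00876) and Plcg2 (0.45, FDR 0.00771) and the adaptor Grb2 (0.62, FDR 0.00186) were higher. Bcl10, which links receptors to NF-kappaB, was lower (-0.40, FDR 0.00428). Of 5 endocytosis and phagosome genes known to work with Slamf1 or its relatives, Uvrag (0.43, FDR 0.00566) and Becn1 (0.36, FDR 0.00857) were higher, Pik3r4 was lower (-0.39, FDR 0.0227) and 2 were not called (median 0.19), again beside 35.9% of all genes called. With ABC library 3 left out, the counts were 2 higher and 2 lower of 8 for the kinases and phosphatases, 5 and 2 of 9 for the downstream genes and 2 and 1 of 5 for the endocytosis and phagosome genes. None of these partners was called between aged and young FO B cells.

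Neighbours of the SLAM genes on chromosome 1 were also tested. Of 31 protein-coding genes within 250 kb of a member, 17 were tested in ABCs against aged FO B cells, and 5 were higher, 1 lower and 11 not called, with a median log2 fold change of 0.05. The share called is near the 35.9% of all genes. With ABC library 3 left out, 4 were higher and 0 lower, with Pfdn2 not called (FDR 0.0628). Igsf8 (1.16, limma FDR 0.00183), Pea15a (0.97, FDR 0.00543) and Dusp23 (0.86, FDR 0.00387) were the largest rises. They lie between the main cluster and Slamf9 or beyond Slamf8. Pfdn2 was the lower one (-0.46, FDR 0.0357), and its call was lost in 8 of 16 alternatives. Against young FO B cells, 4 neighbours were higher and 3 lower of 19 tested. The lower ones were Pfdn2 (-0.65), Vangl2 (-1.15, FDR 0.00954) and Igsf9 (-1.50, FDR 0.000383), of which the last 2 were named after their values were seen. Vangl2 (1.95 FPKM in young FO B cells, 0.349 in ABCs) and Igsf9 (2.17 and 0.118) reached the level required for the test only through the young FO B cells. Their calls are therefore not independent of the difference. Igsf9 begins 3213 bases past the end of Slamf9. In aged FO B cells it was at 1.52 ± 0.760 FPKM against 0.118 ± 0.0537 in ABCs, without overlap, and did not reach the level required for that test.

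**Figure D4:**
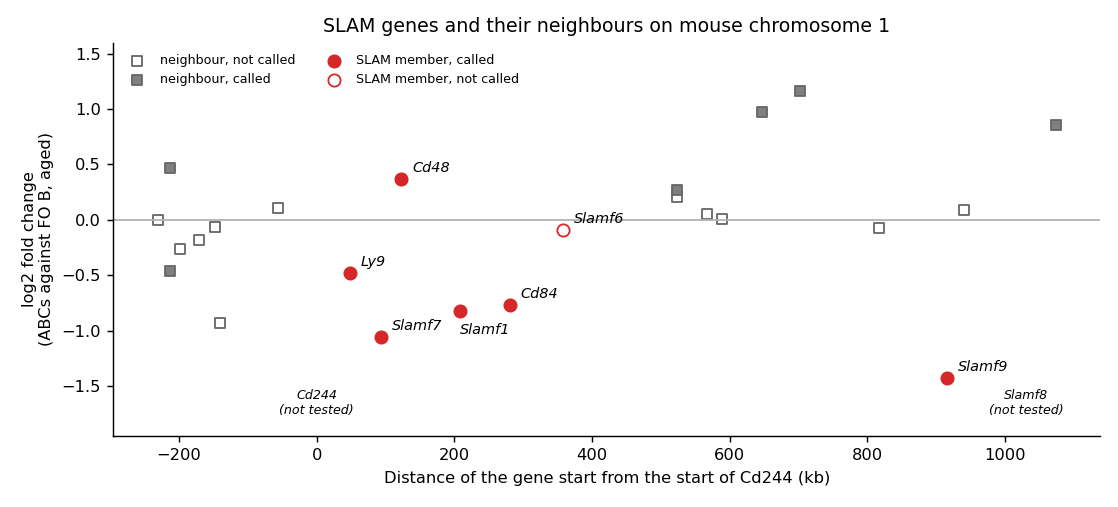
Difference in log2(FPKM + 1) between ABCs and aged FO B cells for the SLAM family genes (circles) and protein-coding neighbours (squares), by the distance of each gene start from the start of Cd244, in kb. Within the main cluster Cd48 is above 0 and Ly9, Slamf7, Slamf1 and Cd84 are below it. Of the called neighbours, 5 are above 0, such as Igsf8 and Dusp23, and Pfdn2 is below it.

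The genes nearest in pattern to each called member were found by the root mean square (RMS) difference of centred log2(FPKM + 1) over the 9 libraries, among 10375 genes. Slamf1 was nearest to Zhx2 (RMS 0.09) and Marcksl1 (0.10), and Cd84 to Mcl1 (0.09). Mcl1, an anti-apoptotic gene, was at a mean of 252 FPKM in young FO B cells, 262 in aged ones and 153 in ABCs. Slamf7 was nearest to Susd1 (0.13) and Shisa5 (0.16), and Slamf9 to Dusp4 (0.13) and Atp1b1 (0.18). Ly9 was nearest to the ribosomal protein gene Rpl10a (0.06) and to 0610011F06Rik (0.06), and Cd48 to Impad1 (0.05) and Gnl3l (0.06). The likeness describes these 9 libraries, in which the points share the group differences.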

How the data were processed

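RNA-seq of 9 libraries of sorted splenic B cells was analysed. Per the labels, cDNA was made with SMART-Seq HT and libraries with Nextera XT, and per the methods single reads of 101 bases were aligned to mm10. The submitters' processing notes list TopHat2 2.1.1, Bowtie2 2.2.8, SAMtools 0.1.18 and Cuffdiff 2.2.1. The paper's methods differ, with other versions of TopHat, Bowtie2 and SAMtools, and with Cufflinks in place of Cuffdiff. The annotation is not given in the sources used here. The authors deposited 1 FPKM value per gene symbol and library, already scaled by depth and transcript length.

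Groups and replicate numbers came from the labels. FPKM was taken as log2(FPKM + 1), which understates changes of low genes, and genes averaging 1 FPKM or more across the 6 libraries compared were tested with limma 3.58.1 (R 4.3.3, eBayes with a trend) and Benjamini-Hochberg adjustment over all genes tested (FDR, called below 0.05). Single values were also compared by exact two-sided permutation tests. The fit was tested on simulated data. For ABCs against aged FO B cells it called 97 of 100 genes changed by 2 on the log2 scale, over 10352 genes. Only changes of 2 and 3 were simulated, in genes well above the filter on level. Recovery of smaller changes, such as those of the members, was therefore not tested.

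Named partners and neighbours were those called in ABCs against aged FO B cells, at most the 3 largest rises and 3 largest decreases of a list, with the SH2 adaptors and Cd2 in any case. Lck, Fyn, Vangl2 and Igsf9 were exceptions, named after their values were seen. The sort markers and the 2 genes nearest in pattern to each called member were also named. A B-lineage marker and a gene near in pattern are not reported here. The members and lists were chosen with earlier results of these data known. Alternatives changed the pseudocount (0.1, 0.01), the filter, the scaling, the variance model and the libraries. Those for partners and neighbours were added after seeing the data.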

Additional observations from a re-analysis of the deposited data

How the results depend on the processing

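Precision was limited by 3 libraries a group and, for Slamf8, Slamf9 and Cd244, by few reads. For ABCs against aged FO B cells, 1 member was higher and 5 lower; the count of higher members was 1 in the other settings run, except 2 without ABC library 3 and 0 at FDR < 0.01 with a log2 fold change beyond 2.3. The count of lower members was 2 with no filter on low values or with upper quartile scaling, 1 at FDR < 0.01 and 0 with the fold limit, and from 1 to 5 when single libraries were left out. Of ABCs against young FO B cells (1 higher, 5 lower), 0 members were higher with no filter, quantile normalization, upper quartile scaling, no variance trend or FDR < 0.01 with or without the fold limit, and from 0 to 2 when single libraries were left out. Lower ones numbered 3 with upper quartile scaling, 1 at FDR < 0.01, 0 with the fold limit, and from 1 to 5 without single libraries. Between aged and young FO B cells the counts were 0 in each setting run.

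Slamf6 turned direction in ABCs against aged FO B cells with upper quartile scaling (0.0866) and without ABC library 3 (0.264; -0.280 to 0.264 over single libraries left out), and against young FO B cells likewise (0.025 and 0.331; -0.213 to 0.331). Between aged and young FO B cells, values near 0 turned for Slamf1 (-0.0443 with upper quartile scaling, -0.00434 to 0.15 over single libraries left out, lowest without aged library 1), Slamf6 (-0.0617 with upper quartile scaling), Slamf9 (-0.431 to 0.016, highest without young library 2), Cd48 (-0.135 to 0.0517, highest without young library 3) and Ly9 (-0.104 to 0.00155, highest without aged library 2). Upper quartile scaling moved the median of all genes to 0.155 and -0.119 in the first and second comparison; other causes were not tested.

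Whether replicate numbers pair the libraries stayed unknown, because correlations of deviations from means of 3 libraries cannot decide it. For same-numbered ABC and aged FO libraries these correlations were 0.083, -0.018 and 0.109. For different numbers they ran from -0.109 to 0.062, and not every library correlated best with its own number. With a replicate block 1 member was higher and 4 lower in ABCs against aged FO B cells (Ly9 FDR 0.0566), 0 and 5 against young FO B cells (Cd48 FDR 0.0595), and 0 and 0 between FO groups.

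Over all genes, ABCs against aged FO B cells gave 1254 higher and 818 lower at FDR < 0.01, 155 and 45 with the fold limit, and as few as 1054 lower with 1 library left out (without aged FO library 1). Against young FO B cells these were 1440 and 1025, 180 and 50, 1312 lower without young library 1, and 1847 higher and 927 lower with upper quartile scaling. Between FO groups, 35 higher and 12 lower became 15 and 2 at FDR < 0.01, 2 and 0 with the fold limit, 13 and 2 with no filter, 13 and 5 with all 9 libraries, 22 and 8 with no variance trend, and 16 to 48 and 2 to 27 when single libraries were left out.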
